A study of Mus musculus with 9 samples.

Results

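The genes described here make, transport and load the peptides that major histocompatibility complex (MHC) molecules show to T cells, or switch those genes on. They were Tap1, Tap2, Tapbp, Psmb8, Psmb9, Psmb10, B2m, Nlrc5, Ciita and Cd74, named by symbol in a choice made with earlier results of these data known, and all 10 were measured among 19938 genes. Each gene was read from the probe set annotated with its symbol alone, and, where there were several, from the one with the highest mean over the 9 arrays. The samples were 9 Affymetrix MouseGene 1.0 ST arrays of total RNA from BaF3, a mouse blood cell line that depends on interleukin-3. The cells carried 1 of 3 fusion tyrosine kinases, delivered by retrovirus, and were sorted for EGFP fluorescence. The groups were BCR-ABL (given as BCR-ABL1P210 in the series text), BCR-RET and FGFR1OP-RET, with 3 arrays each. The series title ties both RET fusions to chronic myelomonocytic leukaemia. The labels state neither the viral promoter, nor whether the sorted cells were pools or clones, nor the culture conditions at harvest. They also leave unsaid whether arrays of a group were separate infections or cultures, so the p-values below rest on a spread between arrays that may be technical. BaF3 cells without a fusion were not analysed here, so each difference below is between fusions.

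Class I MHC molecules display fragments of proteins from inside the cell. The proteasome cuts the proteins, and the inducible subunits encoded by Psmb8, Psmb9 and Psmb10 can replace the constitutive catalytic subunits to form the immunoproteasome. The transporter made of TAP1 and TAP2 carries the peptides into the endoplasmic reticulum, where tapasin, encoded by Tapbp, holds an empty class I heavy chain and its partner beta-2-microglobulin (B2m) close to the transporter. NLRC5 is the coactivator of class I genes and CIITA that of class II genes. CD74, the invariant chain, guides class II molecules to the compartment where they load peptides taken up from outside. In most cell types class I genes are active at some level and rise with interferon, whereas class II genes are largely limited to B cells, dendritic cells and macrophages.

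Tap1 and Psmb9 lie back to back on chromosome 17 with Psmb8 and Tap2 beside them. In the RefSeq gene order the run is H2-DMb2, H2-DMb1, Psmb9, Tap1, Psmb8, Tap2 and H2-Ob. The starts of Psmb9 and Tap1 are 225 bases apart, so a single stretch of DNA lies upstream of both. It is shown in full because both genes passed the test described below, with the 250 bases before the start of Tapbp, which also passed, and of B2m, which did not. The sequences are from RefSeq on GRCm38.p6, are on the plus strand, and were found for 6 of the 10 genes. Capitals mark matches, on either strand, to the CCAAT box (CCAAT, or ATTGG on the other strand), the cyclic AMP response core TGACG, the interferon-stimulated response element core (GAAA, any 2 bases, GAAA) and the NF-kB consensus.
Psmb9 to Tap1, chr17:34187331-34187555: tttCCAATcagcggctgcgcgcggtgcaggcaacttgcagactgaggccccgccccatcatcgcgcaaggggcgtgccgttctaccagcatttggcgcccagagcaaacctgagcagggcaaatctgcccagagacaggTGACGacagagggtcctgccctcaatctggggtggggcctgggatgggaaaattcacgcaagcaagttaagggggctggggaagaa
Tapbp, chr17:33919228-33919477: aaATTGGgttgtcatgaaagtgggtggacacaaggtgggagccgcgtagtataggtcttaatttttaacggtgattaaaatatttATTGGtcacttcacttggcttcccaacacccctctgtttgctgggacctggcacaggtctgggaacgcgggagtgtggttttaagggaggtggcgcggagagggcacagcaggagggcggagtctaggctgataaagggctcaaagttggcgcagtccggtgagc
B2m, chr2:122147437-122147686: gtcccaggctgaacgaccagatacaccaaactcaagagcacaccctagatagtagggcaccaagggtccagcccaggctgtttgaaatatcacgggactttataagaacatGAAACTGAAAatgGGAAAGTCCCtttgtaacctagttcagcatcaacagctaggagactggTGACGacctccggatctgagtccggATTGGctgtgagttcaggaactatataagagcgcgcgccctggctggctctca

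The stretch between Psmb9 and Tap1 held 1 CCAAT box, next to the start of Psmb9, and 1 TGACG core. Tapbp had 2 CCAAT boxes. The B2m window held GAAACTGAAA, which matches the interferon-stimulated core, a few bases from GGAAAGTCCC, which matches the NF-kB consensus, together with a TGACG core and a CCAAT box. Psmb8 had 1 match, TTCCCAGAA, to the gamma-activated site core TTCNNNGAA, and Psmb10 had no match to any of the 5 motifs. Among 32841 mouse windows of 250 bases before a start, 2.98% held the interferon-stimulated core, 7.02% the gamma-activated core, 7.25% the NF-kB consensus, 33.9% a CCAAT box and 17.8% a TGACG core. A match describes the letters in the window and is not a measured binding site.

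Values below are the deposited log2 values, made by robust multi-array averaging (RMA). A difference of 1 is a 2-fold change, ± is the SD of 3 arrays and SE the standard error of a difference. Differences were tested with limma over all 19938 genes, and a gene passed where its p, adjusted by Benjamini and Hochberg's method, was under 0.05. A level can be followed across groups for 1 gene but cannot be ranked between genes, since probe sets differ in sensitivity. In RNA from bulk cells, a change in the share of cells that express a gene cannot be told apart from a change in RNA per cell.

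The transporter gene Tap1, the tapasin gene Tapbp and the immunoproteasome gene Psmb9 differed between the fusions. All 3 were lowest with BCR-ABL, and the differences from it that passed were 1.23-fold to 1.47-fold. Of the 10 genes, 2 were higher with BCR-RET than with BCR-ABL (Tapbp and Psmb9; 0.371% of all genes were higher) and none lower. With FGFR1OP-RET 3 of 10 were higher than with BCR-ABL (Tap1, Tapbp and Psmb9; 0.787% of all genes; 1.02% passed in either direction) and none lower. Between the RET fusions 2 of 10 were lower with BCR-RET (Tap1 and Tapbp; 0.853% of all genes) and none higher (0.476% of all genes; 1.33% in either direction). A moderated F test over the 3 fusions passed Tap1, Tapbp and Psmb9 (adjusted p = 0.00544, 0.00182 and 0.0166), where 1.74% of all genes passed.

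Counts without a test read the same way for BCR-RET. All 10 genes lay above 0 in BCR-RET minus BCR-ABL (60.7% of all genes did), and for 7 of 10 every BCR-RET array was above every BCR-ABL array (10.7% of all genes). In FGFR1OP-RET minus BCR-ABL 9 of 10 lay above 0 (50.8% of all genes), and 4 of 10 had no overlap (6.94% of all genes). The median difference of the 10 was 0.24 and 0.22, beside 0.03 and 0.00 for all genes. In BCR-RET minus FGFR1OP-RET the median was 0.01, beside 0.03, and 6 of 10 lay above 0 (60.5% of all genes). There 1 gene, Psmb10, was higher without overlap (8.77% of all genes) and 2, Tap1 and Tapbp, were lower (6.49%). Both comparisons with BCR-ABL use the same 3 BCR-ABL arrays, so they are not independent. Since earlier results were known when the 10 genes were chosen, these counts describe the set and do not set it apart from other genes. The genes past the threshold in BCR-RET minus BCR-ABL were 117 of 19938, or 0.587%, and 362 when blocked by replicate number, where Tapbp and Psmb9 were again the 2 of the set that passed.

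**Figure D1:**
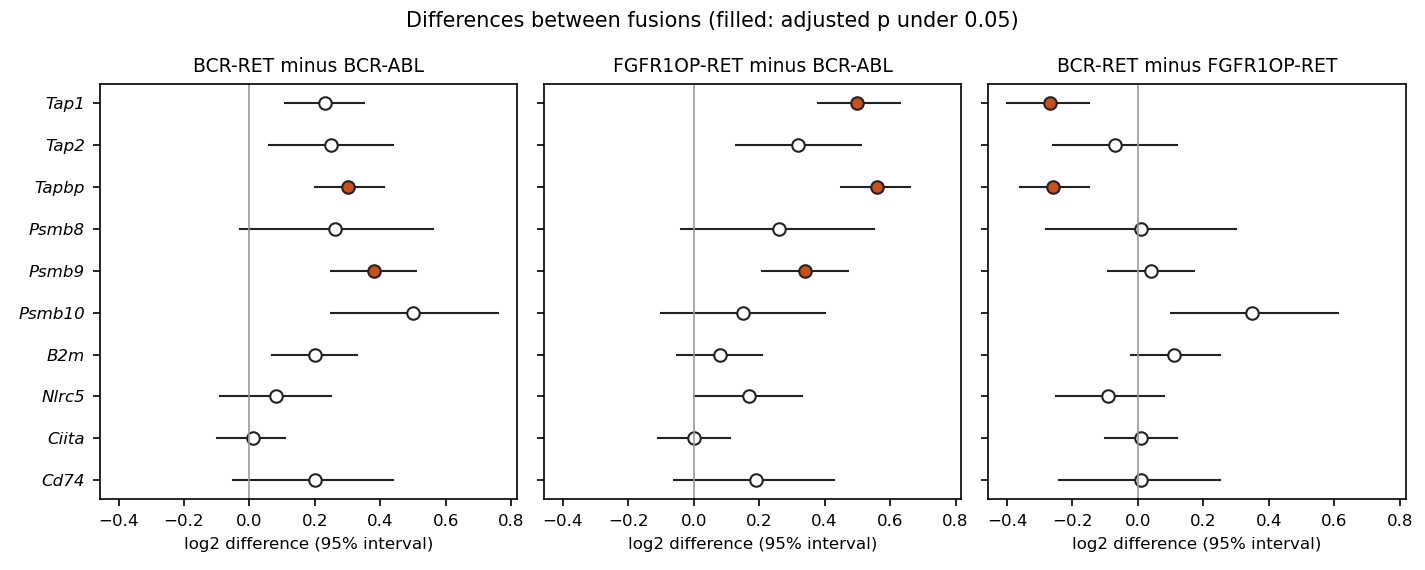
Log2 differences of the 10 genes with their 95% intervals from the limma fit, in the 3 comparisons (3 arrays a group; filled: adjusted p under 0.05). The largest difference among filled points is that of Tapbp between FGFR1OP-RET and BCR-ABL, 0.56, and Psmb10 has the largest open one, 0.50.

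Tap1 was lowest with BCR-ABL, intermediate with BCR-RET and highest with FGFR1OP-RET. It read 9.77, 9.76 and 9.77 on the BCR-ABL arrays, 10.06 and 9.93 on BCR-RET replicates 2 and 3 with replicate 1 between them, and 10.28, 10.34 and 10.19 on the FGFR1OP-RET arrays. The 3 groups did not overlap. FGFR1OP-RET exceeded BCR-ABL by 0.50 (SE 0.05, 95% interval 0.38 to 0.63, 1.42-fold, adjusted p = 0.00332), and this call held when any of the 9 arrays was left out. BCR-RET minus FGFR1OP-RET was -0.27 (SE 0.05, adjusted p = 0.0499), at the edge of the threshold. That call was lost when any 1 array other than FGFR1OP-RET replicate 3 was left out, with an adjusted p of up to 0.179. The difference of BCR-RET from BCR-ABL, 0.23 (interval 0.11 to 0.35), did not pass (adjusted p = 0.150), although the arrays did not overlap.

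Tapbp had the same order. Its arrays read 9.99, 9.96 and 10.01 with BCR-ABL, 10.27, 10.35 and 10.24 with BCR-RET, and 10.52, 10.56 and 10.56 with FGFR1OP-RET, again with no overlap between groups. FGFR1OP-RET was above BCR-ABL by 0.56 (SE 0.05, interval 0.45 to 0.66, 1.47-fold, adjusted p = 0.00143), which held without each array in turn. BCR-RET was above BCR-ABL by 0.30 (SE 0.05, 1.23-fold, adjusted p = 0.0280), a call lost without any 1 of the BCR-ABL or BCR-RET arrays (adjusted p up to 0.156). BCR-RET minus FGFR1OP-RET was -0.26 (SE 0.05, adjusted p = 0.0393), a call lost without any 1 of the 9 arrays (up to 0.147). Of all 19938 genes, 62 (0.311%) had 3 groups apart in this order, and Tap1 and Tapbp were 2 of these. Tapbp had 2 further probe sets shared with another symbol, which were left out.

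Tap2, the other chain of the transporter, read 10.21, 10.16 and 10.29 with BCR-ABL, 10.58, 10.47 and 10.36 with BCR-RET, and 10.61, 10.65 and 10.37 with FGFR1OP-RET. Every array of both RET fusions was above every BCR-ABL array, and the RET fusions overlapped each other. The differences from BCR-ABL were 0.25 (interval 0.06 to 0.44, adjusted p = 0.317) for BCR-RET and 0.32 (0.13 to 0.51, adjusted p = 0.174) for FGFR1OP-RET, and neither passed. Replicate 3 was the lowest of its group in both RET fusions. Thus 1 chain of the transporter passed and the other did not, with overlapping intervals, and the difference between the chains was not tested.

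**Figure D2:**
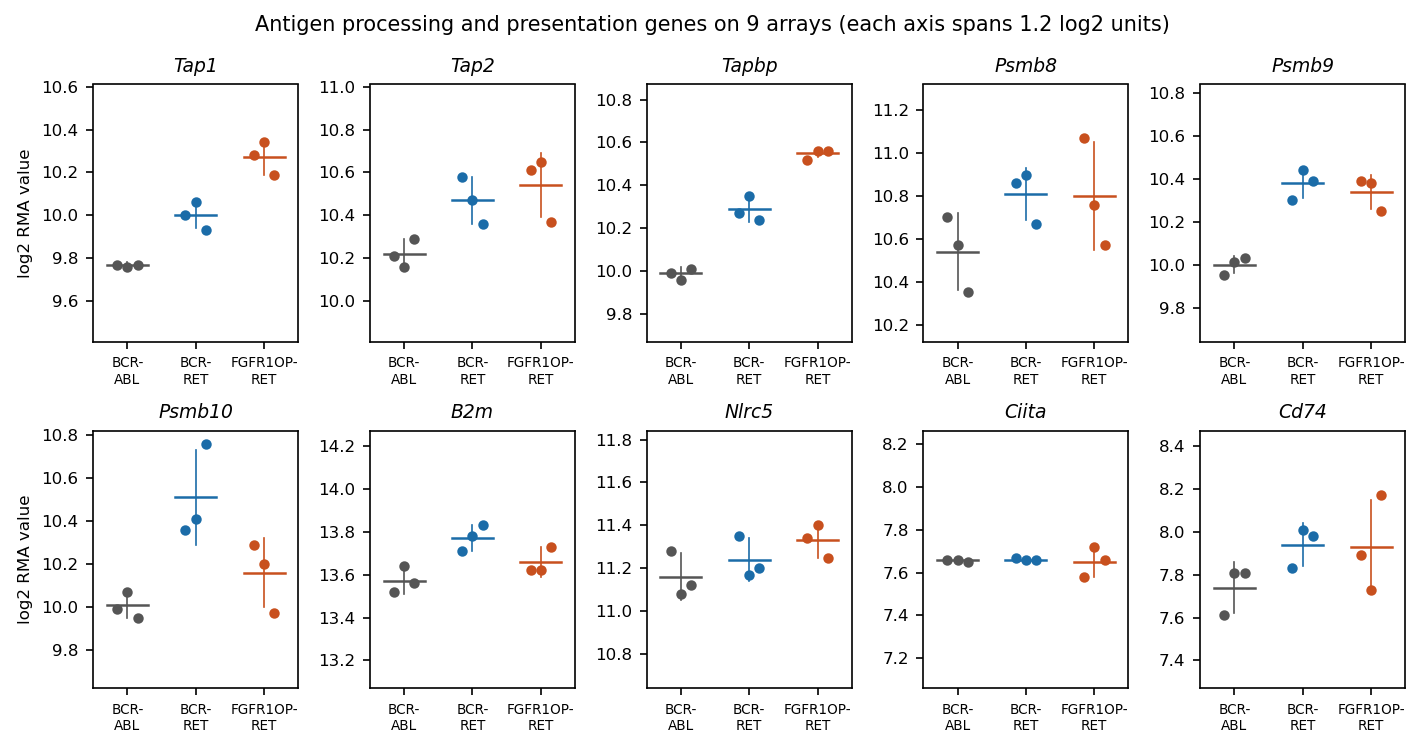
Log2 RMA values of the 10 genes on each of the 9 arrays, by fusion (points: arrays, replicates 1 to 3 from left to right; horizontal line: group mean; vertical line: ± 1 SD, n = 3). The vertical axes span equal ranges but start at different levels. Tap1 and Tapbp show 3 separate groups, from 9.76 to 10.34 and from 9.96 to 10.56.

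Psmb9, the inducible subunit that replaces Psmb6, was higher with both RET fusions. It read 9.95, 10.01 and 10.03 with BCR-ABL, 10.30, 10.44 and 10.39 with BCR-RET, and 10.39, 10.38 and 10.25 with FGFR1OP-RET. The BCR-ABL arrays stood below all 6 others, and the RET fusions overlapped. BCR-RET exceeded BCR-ABL by 0.38 (SE 0.06, 1.30-fold, adjusted p = 0.0245) and FGFR1OP-RET by 0.34 (SE 0.06, 1.27-fold, adjusted p = 0.0278). The BCR-RET call was lost without any 1 of the BCR-ABL arrays or BCR-RET replicates 2 or 3 (adjusted p up to 0.120). The FGFR1OP-RET call was lost without any 1 of the BCR-ABL arrays, BCR-RET replicate 3, or FGFR1OP-RET replicates 1 or 2 (up to 0.132). BCR-RET minus FGFR1OP-RET was 0.04 (interval -0.09 to 0.17, adjusted p = 0.806).

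Psmb10, which replaces Psmb7, was highest with BCR-RET. Its arrays read 9.99, 10.07 and 9.95 with BCR-ABL, 10.36, 10.41 and 10.76 with BCR-RET, and 10.29, 10.20 and 9.97 with FGFR1OP-RET. BCR-RET overlapped neither other group, while the other two overlapped. The difference of BCR-RET from BCR-ABL was 0.50 (interval 0.25 to 0.76, 1.42-fold), the largest of the 10 genes in that comparison, but the spread of the BCR-RET arrays (SD 0.22) was wide and it did not pass (adjusted p = 0.120). FGFR1OP-RET differed from BCR-ABL by 0.15 (interval -0.10 to 0.40, adjusted p = 0.726), and BCR-RET minus FGFR1OP-RET was 0.35 (0.10 to 0.61, adjusted p = 0.203).

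Psmb8, which replaces Psmb5, did not pass in any comparison. It read 10.70, 10.57 and 10.35 with BCR-ABL, 10.86, 10.90 and 10.67 with BCR-RET, and 11.07, 10.76 and 10.57 with FGFR1OP-RET. Replicate 3 was the lowest of every group, and all groups overlapped. BCR-RET and FGFR1OP-RET each lay 0.26 above BCR-ABL, with intervals of -0.03 to 0.56 (adjusted p = 0.484) and -0.04 to 0.55 (adjusted p = 0.584).

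The 14 genes of the constitutive proteasome core had no member past the threshold in any comparison. Of all genes, 0.587% passed in BCR-RET minus BCR-ABL, 1.02% in FGFR1OP-RET minus BCR-ABL and 1.33% in BCR-RET minus FGFR1OP-RET. With such shares, a list this short without a call is not set apart from other genes. All 14 lay above 0 in BCR-RET minus BCR-ABL (median 0.19, range 0.04 to 0.25; 60.7% of all genes did). The same was so in BCR-RET minus FGFR1OP-RET (median 0.20; 60.5% of all genes), which uses the same 3 BCR-RET arrays and is not independent. In FGFR1OP-RET minus BCR-ABL 7 of 14 lay above 0 (median 0.00), near the 50.8% of all genes. The medians of all genes in these comparisons were 0.03, 0.03 and 0.00. The largest core difference between BCR-RET and BCR-ABL was that of Psmb6, 0.25 (SE 0.08, adjusted p = 0.298), and Psmb1 was at 0.24 (SE 0.12).

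The change of each inducible subunit was then set against that of the constitutive subunit it replaces on the same array, a comparison chosen after the values were seen. Psmb9 relative to Psmb6 was higher with FGFR1OP-RET than with BCR-ABL by 0.29, with no overlap, and Psmb10 relative to Psmb7 was higher with BCR-RET than with BCR-ABL by 0.33, with no overlap. Each had a two-sided exact permutation p = 0.10, the smallest that 3 arrays against 3 allow, so neither could pass. Psmb9 relative to Psmb6 differed by 0.12 between BCR-RET and BCR-ABL, where the groups overlapped (exact permutation p = 0.300). Psmb8 relative to Psmb5 differed by 0.10 for BCR-RET and 0.34 for FGFR1OP-RET, with overlapping groups (exact permutation p = 0.800 and 0.50). Over the 9 such comparisons the adjusted p lay between 0.450 and 0.800.

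No gene of 10 for proteasome activators and assembly factors passed in any comparison. Among all genes 0.587% passed for BCR-RET and 1.02% for FGFR1OP-RET against BCR-ABL, and 1.33% between the RET fusions. Psme2, a chain of the activator that interferon induces, was 0.29 higher with BCR-RET (adjusted p = 0.286) and 0.31 higher with FGFR1OP-RET (adjusted p = 0.247) than with BCR-ABL. Pomp, the assembly chaperone of the core, read 11.20, 11.54 and 11.43 with BCR-ABL, 11.62, 11.60 and 12.00 with BCR-RET, and 11.31, 11.22 and 11.32 with FGFR1OP-RET. BCR-RET was above both other groups without overlap, and the differences, 0.35 and 0.46, did not pass (adjusted p = 0.298 and 0.112). Psmg4, another assembly chaperone gene, was 0.35 higher with BCR-RET than with BCR-ABL (SE 0.07, adjusted p = 0.0882; 0.0369 when blocked by replicate number). Psmg1, a further assembly chaperone gene, lay 0.53 higher with BCR-RET than with FGFR1OP-RET (SE 0.12, adjusted p = 0.0881) and at -0.35 in FGFR1OP-RET minus BCR-ABL (adjusted p = 0.362).

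B2m, the light chain of class I molecules, did not pass in any comparison. Its arrays read 13.52, 13.64 and 13.56 with BCR-ABL, 13.71, 13.78 and 13.83 with BCR-RET, and 13.62, 13.62 and 13.73 with FGFR1OP-RET. BCR-RET stood above BCR-ABL without overlap, by 0.20 (interval 0.07 to 0.33, adjusted p = 0.256), and FGFR1OP-RET lay between and overlapped both, 0.08 above BCR-ABL (interval -0.05 to 0.21, adjusted p = 0.703). BCR-RET minus FGFR1OP-RET was 0.11 (interval -0.02 to 0.25, adjusted p = 0.393).

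Of 15 other class I and class I-like heavy chain genes with a probe set of their own, 1 passed, higher in FGFR1OP-RET minus BCR-ABL (0.787% of all genes) and lower in BCR-RET minus FGFR1OP-RET (0.853% of all genes). H2-T24, a nonclassical class I gene, read 7.28, 7.32 and 7.33 with BCR-ABL, 7.54, 7.76 and 7.45 with BCR-RET, and 7.93, 8.09 and 7.94 with FGFR1OP-RET. The 3 groups stood apart in the order seen for Tap1. FGFR1OP-RET was 0.68 above BCR-ABL (SE 0.08, 1.60-fold, adjusted p = 0.00506), which held without each array in turn. BCR-RET minus FGFR1OP-RET was -0.41 (SE 0.08, adjusted p = 0.0494), a call lost when any 1 array other than BCR-RET replicate 2 was left out (up to 0.164). The medians of the 15 genes were 0.08 for BCR-RET and 0.04 for FGFR1OP-RET against BCR-ABL. The largest differences of BCR-RET from BCR-ABL were those of Mr1, which presents vitamin metabolites, at 0.32 (adjusted p = 0.304) and of H2-M3, which presents formylated peptides, at 0.28 (adjusted p = 0.295).

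The classical chains H2-K1 and H2-D1 share their probe sets with other symbols, and they and H2-L are not analysed here by name. The 7 probe sets that carry several class I symbols had no call in any comparison. Of all 35557 probe sets, 0.340% passed in FGFR1OP-RET minus BCR-ABL, 0.205% in BCR-RET minus BCR-ABL and 0.284% in BCR-RET minus FGFR1OP-RET. Their differences from BCR-ABL ran from -0.03 to 0.46 for FGFR1OP-RET, with 6 of 7 above 0, and from -0.02 to 0.36 for BCR-RET, with 5 of 7 above 0. The highest values, 0.46 and 0.36, were on probe sets of H2-T symbols (H2-T-ps or H2-T23, and H2-T9, H2-T22 or H2-T10). The probe sets carrying both H2-K1 and H2-D1 were at 0.12 and 0.04 for FGFR1OP-RET and at 0.05 and -0.01 for BCR-RET, with overlapping groups.

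None of the 13 other genes for peptide trimming, chaperones and assembly passed in any comparison, and their median differences were -0.01, -0.02 and -0.01. In the same comparisons (BCR-RET and FGFR1OP-RET against BCR-ABL, then BCR-RET minus FGFR1OP-RET) 0.587%, 1.02% and 1.33% of all genes passed. Tapbpl, a relative of tapasin that edits peptides outside the transporter complex, read 8.20, 8.06 and 8.28 with BCR-ABL, 8.32, 8.32 and 8.27 with BCR-RET, and 8.37, 8.45 and 8.49 with FGFR1OP-RET. FGFR1OP-RET was above both other groups on every array, and 0.26 above BCR-ABL (SE 0.06, adjusted p = 0.141). Ero1a, an oxidase of the endoplasmic reticulum, was 0.30 above BCR-ABL with FGFR1OP-RET (adjusted p = 0.267) and 0.27 with BCR-RET (adjusted p = 0.304; 0.0438 when blocked by replicate number). Pdia3, which forms a disulphide with tapasin, lay at -0.19 in BCR-RET minus BCR-ABL (adjusted p = 0.486).

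Nlrc5 depended on which of its probe sets was read. The probe set with the highest mean read 11.28, 11.08 and 11.12 with BCR-ABL, 11.35, 11.17 and 11.20 with BCR-RET, and 11.34, 11.40 and 11.25 with FGFR1OP-RET, with all groups overlapping. Its differences from BCR-ABL were 0.08 for BCR-RET (adjusted p = 0.684) and 0.17 for FGFR1OP-RET (adjusted p = 0.509). Nlrc5 has 19 probe sets of its own on this array, and this one had the smallest FGFR1OP-RET minus BCR-ABL difference of the 19. All 19 lay above 0 in that comparison (47.4% of all probe sets did), with a median of 0.47 and a range of 0.17 to 0.94. On 17 of them every FGFR1OP-RET array was above every BCR-ABL array (5.82% of all probe sets). In a fit over all 35557 probe sets, 4 of the 19 passed (0.259% of all), with a lowest adjusted p of 0.0150. Probe sets of 1 gene read the same RNA and are not replicates.

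The mean of the 19 Nlrc5 probe sets read 8.80, 8.75 and 8.74 with BCR-ABL, 9.0, 8.99 and 8.86 with BCR-RET, and 9.38, 9.28 and 9.12 with FGFR1OP-RET, 3 groups that did not overlap. On this mean FGFR1OP-RET exceeded BCR-ABL by 0.50 (SE 0.07, interval 0.34 to 0.65, 1.41-fold, adjusted p = 0.0103). That call was lost without BCR-ABL replicates 2 or 3 or FGFR1OP-RET replicate 2 (adjusted p up to 0.0686). BCR-RET differed from BCR-ABL by 0.19 (adjusted p = 0.359), and BCR-RET minus FGFR1OP-RET was -0.31 (adjusted p = 0.0777). The leave-out values of this mean were computed after the probe sets had been seen to differ.

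**Figure D3:**
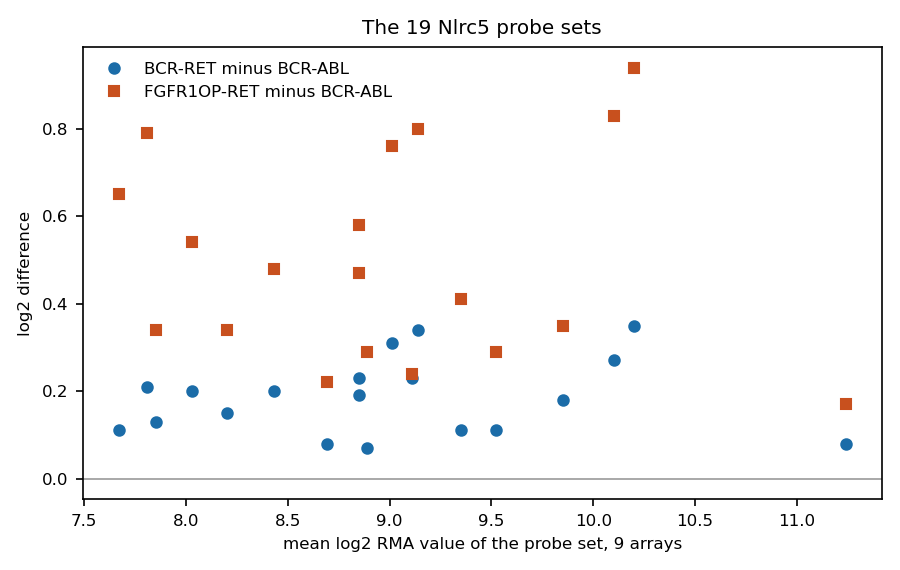
Each of the 19 Nlrc5 probe sets, by its mean log2 RMA value over the 9 arrays (horizontal axis) and its log2 difference from BCR-ABL (vertical axis; circles: BCR-RET, squares: FGFR1OP-RET; 3 arrays a group). All points lie above 0, and the probe set with the highest mean, 11.24, has the smallest FGFR1OP-RET difference, 0.17.

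Ciita, the class II coactivator, had nearly the same reading with each fusion. It lay between 7.58 and 7.72 on all 9 arrays, with group means of 7.66, 7.66 and 7.65, and with only 5 distinct values among the 9. These values lay below the array medians of 8.01 to 8.04. Without detection calls, equal expression could not be told apart from a transcript that was not detected. The intervals of its differences from BCR-ABL were -0.10 to 0.11 for BCR-RET (adjusted p = 0.964) and -0.11 to 0.11 for FGFR1OP-RET (adjusted p = 0.997).

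Cd74 read 7.61, 7.81 and 7.81 with BCR-ABL, 7.83, 8.01 and 7.98 with BCR-RET, and 7.89, 7.73 and 8.17 with FGFR1OP-RET. BCR-RET stood just above BCR-ABL, and the widely spread FGFR1OP-RET arrays overlapped both. The differences from BCR-ABL were 0.20 (interval -0.05 to 0.44, adjusted p = 0.511) and 0.19 (-0.06 to 0.43, adjusted p = 0.633), and neither passed.

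Among 8 other class II genes 1 passed, higher in BCR-RET minus BCR-ABL (0.371% of all genes). H2-Oa, a chain of the inhibitor of class II peptide exchange, read 8.40, 8.48 and 8.62 with BCR-ABL, 8.94, 9.02 and 9.14 with BCR-RET, and 8.75, 8.80 and 8.83 with FGFR1OP-RET. Here BCR-RET was highest, and no groups overlapped. BCR-RET exceeded BCR-ABL by 0.53 (SE 0.07, 1.45-fold, adjusted p = 0.0122), a call lost without BCR-ABL replicates 1 or 2 or BCR-RET replicates 2 or 3 (up to 0.0833). FGFR1OP-RET lay 0.30 above BCR-ABL (adjusted p = 0.121). H2-Ab1 and H2-Aa, chains of a classical class II molecule, had means of 7.05, 7.03 and 7.07 and of 5.84, 6.01 and 5.90 in BCR-ABL, BCR-RET and FGFR1OP-RET, with no call. Both also lay below the array medians of 8.01 to 8.04, and their presence could not be read without detection calls.

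Of 12 genes for enzymes of the class II compartment and for ubiquitin ligases of MHC molecules, 1 passed, higher in FGFR1OP-RET minus BCR-ABL (0.787% of all genes). Ifi30, the thiol reductase that opens disulphides of antigens, read 9.10, 9.0 and 8.91 with BCR-ABL, 9.23, 9.26 and 9.15 with BCR-RET, and 9.52, 9.53 and 9.36 with FGFR1OP-RET. The groups stood apart in the order seen for Tap1 and Tapbp. FGFR1OP-RET exceeded BCR-ABL by 0.46 (SE 0.07, 1.38-fold, adjusted p = 0.0124), a call lost without BCR-ABL replicates 2 or 3 or FGFR1OP-RET replicate 2 (up to 0.0761). Ctss, the protease that trims the invariant chain, was 0.53 above BCR-ABL with FGFR1OP-RET (SE 0.16, adjusted p = 0.240), with arrays at 8.41, 8.67 and 8.87 against 7.83, 8.24 and 8.30. Sppl2a, which cleaves the last fragment of the invariant chain, lay at -0.33 in BCR-RET minus BCR-ABL (adjusted p = 0.313; 0.0267 when blocked by replicate number). Marchf8, a ubiquitin ligase, lay at -0.30 (adjusted p = 0.136; 0.0213 when blocked).

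The 11 genes of the factors that act at MHC promoters beside NLRC5 and CIITA had no call in any comparison, and their medians were -0.04, 0.03 and -0.01. The shares of all genes that passed were 0.587% and 1.02% for BCR-RET and FGFR1OP-RET against BCR-ABL, and 1.33% between the RET fusions. Rfxank had the largest difference of BCR-RET from BCR-ABL, 0.18 (SE 0.05, adjusted p = 0.218), and Nfyb that of FGFR1OP-RET, -0.15 (SE 0.07, adjusted p = 0.522).

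Of 16 genes from the interferon receptors to the factors acting on these promoters, 3 were higher with FGFR1OP-RET than with BCR-ABL (0.787% of all genes were) and none lower. Irf7 rose by 1.25 (SE 0.12, 2.38-fold, adjusted p = 0.00216) and Irf9, a subunit of the factor that binds interferon-stimulated elements, by 0.54 (SE 0.07, adjusted p = 0.00784), both also without each array in turn. Usp18, which restrains the type I receptor, rose by 1.18 (SE 0.15, adjusted p = 0.00697), though the adjusted p was 0.0506 once BCR-ABL replicate 2 was left out. The median of the 16 was 0.04, beside 0.00 for all genes, with a range of -0.26 to 1.25. The mean of the 16 on an array ran from 9.77 to 9.81 with BCR-ABL, 9.81 to 9.93 with BCR-RET and 10.01 to 10.03 with FGFR1OP-RET. Irf1, which acts on class I promoters, was 0.38 above BCR-ABL with FGFR1OP-RET and did not pass (adjusted p = 0.101), although the arrays, 9.68, 9.69 and 9.47 against 9.21, 9.33 and 9.14, did not overlap.

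In BCR-RET minus BCR-ABL none of the 16 passed (0.587% of all genes did). Irf7 was at 0.54 (adjusted p = 0.119; 0.00400 when blocked by replicate number) and Usp18 at 0.67 (adjusted p = 0.124; 0.0265 when blocked). Between the RET fusions, 2 of the 16 were lower with BCR-RET, Irf9 and Irf7 (0.853% of all genes), and 1 was higher, Socs1 (0.476% of all genes). Irf9 read 9.68, 9.82 and 9.83 with BCR-RET, within the range of BCR-ABL (9.68, 9.86 and 9.89), and 10.27, 10.38 and 10.39 with FGFR1OP-RET. BCR-RET minus FGFR1OP-RET was -0.57 (SE 0.07, adjusted p = 0.00604), a call that held without each array. For Irf7 it was -0.71 (adjusted p = 0.0260), lost without BCR-ABL replicate 3, BCR-RET replicates 1 or 3, or FGFR1OP-RET replicates 1 or 2 (up to 0.108). Socs1, a feedback inhibitor of Janus kinases, was the 1 gene higher with BCR-RET, by 0.37 (SE 0.07, adjusted p = 0.0494), a call lost without any 1 of the 9 arrays (up to 0.156).

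**Figure D4:**
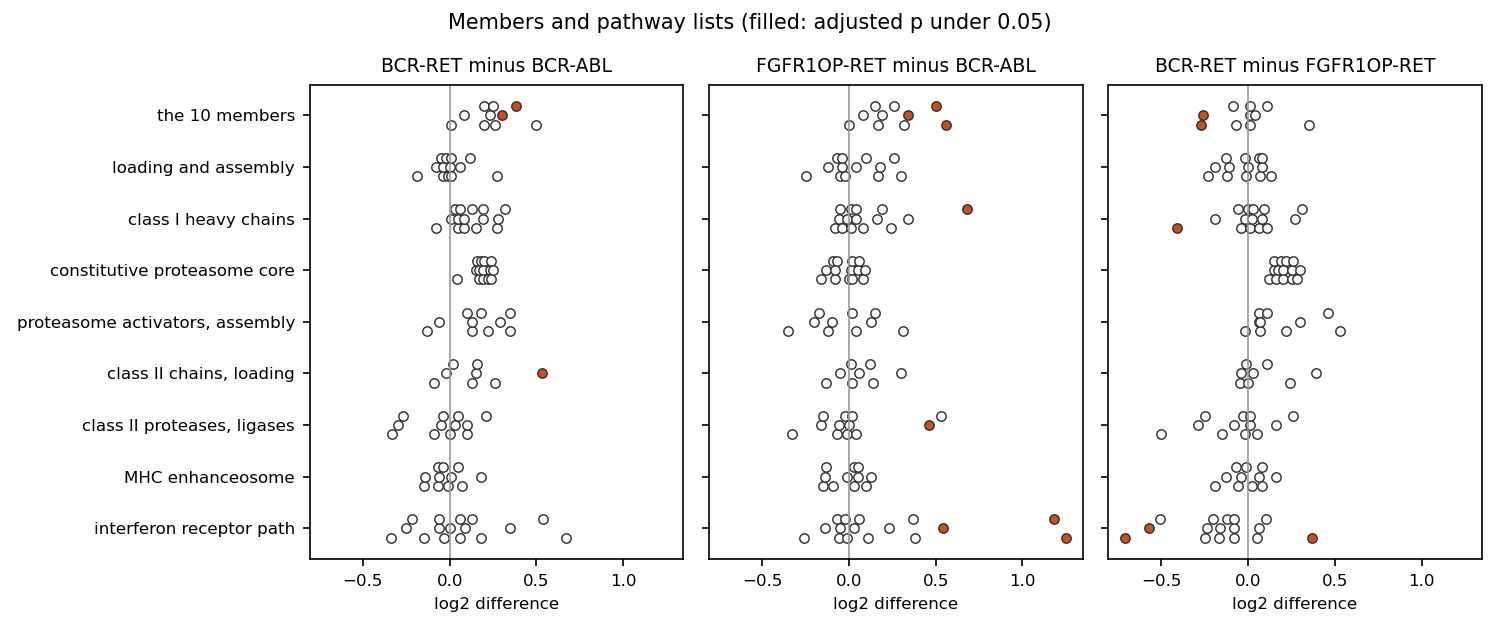
Log2 differences (horizontal axis) of the 10 genes and of the genes of 8 pathway lists (rows), in the 3 comparisons (panels); each point is a gene and filled points passed at an adjusted p under 0.05. The constitutive core lies wholly to the right of 0 in both comparisons that start from BCR-RET with no filled point, and the points past 1 are Irf7 (1.25) and Usp18 (1.18).

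The 10 genes did not follow a single profile over the arrays. Of their 45 pairs, 39 had a Pearson r above 0 over the 9 arrays, with a median of 0.382 and a range of -0.322 to 0.978. The highest was Tap1 with Tapbp, which had 0.537 once the group means were taken out. Tap1 and Tap2 had 0.850, and 0.768 within groups. B2m and Cd74 had 0.768, and 0.812 within groups, while B2m and Tap2 had 0.198, and -0.871 within groups. These values describe 9 arrays that share 3 groups and 1 normalization.

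The genes most like each of the 3 that passed were taken by Pearson r over the 9 arrays among all genes tested. For Tap1 they were Adam8 (0.990), which encodes a membrane metalloprotease, Irf7 (0.984) and H2-T24 (0.982). Adam8 read 10.58, 10.56 and 10.53 with BCR-ABL, 11.02, 10.93 and 10.78 with BCR-RET, and 11.39, 11.55 and 11.30 with FGFR1OP-RET, the order of Tap1 with larger steps. For Tapbp they were Aff1 (0.981), which encodes a factor of transcription elongation, Tap1 (0.978) and Oasl2 (0.975), an interferon-stimulated gene. For Psmb9 they were Tmsb10 (0.959), which encodes an actin-binding thymosin, the olfactory receptor gene Olfr518 (0.954) and Cdc42bpb (0.950), a kinase gene whose values spanned 7.91 to 8.04.

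Markers of other cell types were read beside these results. Of 11 macrophage markers, 2 were higher with FGFR1OP-RET than with BCR-ABL (0.787% of all genes were), Cd14 by 1.06 (adjusted p = 0.0146) and Fcgr1, a gene that interferon also induces, by 0.57 (adjusted p = 0.0351). The Cd14 call was lost without any 1 of the BCR-ABL arrays (adjusted p up to 0.0971). The Fcgr1 call was lost without any 1 of the BCR-ABL or FGFR1OP-RET arrays or BCR-RET replicate 2 (up to 0.147). Cd14 fell by 1.21 in BCR-RET minus FGFR1OP-RET (adjusted p = 0.00775), which held without each array in turn. In FGFR1OP-RET minus BCR-ABL the median of the 11 markers was 0.02, beside 0.00 for all genes, with a range of -0.16 to 1.06. There 6 of 11 lay above 0 (50.8% of all genes), so the list as a whole did not rise. The sum of the 11 markers, Cd14 and Fcgr1 included, ran from 84.7 to 85.3 on BCR-ABL arrays. It ran from 85.9 to 86.2 on BCR-RET arrays and from 85.4 to 88.0 on FGFR1OP-RET arrays. No marker of 11 for the B lineage, 10 for dendritic cells (Ciita among them), 9 for T and NK cells or 8 for fibroblasts was called. Calls were rare among all genes too: 0.587% for BCR-RET and 1.02% for FGFR1OP-RET against BCR-ABL, and 1.33% between the RET fusions. The group means of the 11 B lineage markers ran from 5.63 to 9.87, and without detection calls their presence or absence could not be read. Of these, Cd79b had means of 9.64, 9.87 and 9.72 in BCR-ABL, BCR-RET and FGFR1OP-RET, and its BCR-RET arrays lay above its BCR-ABL arrays without overlap (0.23, adjusted p = 0.489). The same held for 10.7% of all genes, among them Cd3g of the T and NK cell markers and Ccr7 of the dendritic cell markers. The part of these markers in the results above was not tested.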

How the data were processed

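RNA of 9 BaF3 samples was extracted with Trizol and labelled with biotin for Affymetrix MouseGene 1.0 ST arrays, per the labels' protocols. Per the submitters' processing notes, the authors deposited log2 values, 1 per probe set and array, from gene-level RMA by Affymetrix Expression Console, with its version, annotation and build not given in the sources used here. RMA equalizes the arrays' distributions, which hides a shift shared by most transcripts. The deposited log2 values ran from 2.66 to 14.92, array medians from 8.01 to 8.04, and correlations of arrays from 0.993 to 0.996 within groups and 0.989 to 0.996 between them. Of 35557 probe sets, 21789 had 1 symbol, 1621 several and 12147 none here. For 999 genes with several, the brightest was kept, which left 19938 genes. Exactly repeated values were common: 872 genes had 1 value on all 3 arrays of some group. No detection calls were used, and the number of arrays limits the precision.

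Groups and replicate numbers came from sample titles. limma 3.58.1 in R 4.3.3 fitted 3 group means with a spread shared by the 9 arrays, and p-values were adjusted by Benjamini-Hochberg over all genes; the script was tested on simulated data. Other genes were named by rule: up to 4 past the threshold per list and comparison, otherwise the 2 of largest size, and the 3 most correlated genes of each gene past the F test; genes named beyond this rule were chosen after their values were seen. The 10 genes, the lists and the rule were chosen with earlier results of these data known. Arrays of the same number deviated together in BCR-RET and BCR-ABL (r = 0.617, 0.155 and 0.367, across genes), all above the limit of 0.1, although replicate 2 of each also had r = 0.222 with replicate 3 of the other; blocked values stand beside that comparison where they change a call. Names and promoter windows are from RefSeq tables of GRCm38.p6. Alternatives were the replicate number as a block, each array left out, only the compared groups, the mean of a gene's probe sets, a filter on dim genes, all probe sets, a further quantile normalization and a trended robust variance.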

Additional observations from a re-analysis of the deposited data

How the results depend on the processing

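The direction of every call for the 10 genes was kept under every alternative: of 112 repeats of a called difference, 64 stayed past the threshold and 48 did not. Of 368 repeats of a difference that had not passed, 1 passed (Nlrc5 as the mean of its probe sets, FGFR1OP-RET against BCR-ABL), and 16 changed sign. The number of the 10 genes past the threshold was 2 for BCR-RET against BCR-ABL. It became 0 when only these groups entered the fit, 0 with all probe sets tested and 1 with the trended robust variance, and ran from 0 to 2 as each array was left out. For BCR-RET against FGFR1OP-RET the number was 2. It became 0 with only these groups, 0 with all probe sets, 1 after a further quantile normalization and 0 with the trended robust variance, and ran from 0 to 1 as each array was left out. For FGFR1OP-RET against BCR-ABL the number was 3. It became 2 with only these groups and 2 with all probe sets, where Psmb9 did not pass. With the mean of a gene's probe sets it became 4, as Nlrc5 also passed. It ran from 2 to 3 as each array was left out, and Tap1 and Tapbp passed under every alternative. The F test passed 3, but 2 with all probe sets and 4 with the mean of a gene's probe sets, and from 2 to 3 without each array. Leaving out an array also lowers the number of arrays, and taking all probe sets raises the number of tests. The cause of the lost calls was not tested.

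With the replicate number as a block, the same genes passed (2, 3 and 2 of the 10, and 3 in the F test), while the genes past the threshold over all genes went from 117 to 362, from 203 to 576, from 265 to 1135 and from 347 to 1199. Numbers did not pair FGFR1OP-RET arrays with the others (r = 0.382, -0.128 and 0.400 with BCR-ABL, and 0.498, -0.152 and 0.410 with BCR-RET), so blocked values of single genes are not printed there. For the pathway genes named by the rule, 121 of 160 repeats of a call stayed past the threshold, 39 did not, and 22 of 1421 others passed. These counts include the blocked fits of every comparison. Apart from Psme2 after a further quantile normalization (FGFR1OP-RET minus BCR-ABL), the 22 were all blocked fits. Most of those were of comparisons with FGFR1OP-RET, where the numbers did not pair the arrays. Other list genes were not rerun. Cd14 and Fcgr1 were rerun only with the block, which ended no call, and without each array, an alternative chosen after seeing the data.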
